A study of Mus musculus with 36 samples.

Results

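Zfp genes encode zinc finger proteins, and they were examined here in cultured mouse microglia and astrocytes after RIPK1 activation. Members were all genes whose symbol is Zfp followed by digits only, apart from Zfp36, and which are listed in both deposited expression tables. There were 314 such genes among the 13220 symbols that the microglial table (15385 genes) and the astrocyte table (14551 genes) share. Another 9 Zfp genes listed only in the microglial table and 11 listed only in the astrocyte table were not included. The rule reads gene names only, and the set was proposed with earlier results of these data known.

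A zinc finger of the C2H2 kind is a short loop held by a zinc ion, and arrays of such fingers read DNA sequence. Many Zfp proteins also carry a KRAB domain, which recruits the co-repressor TRIM28 and with it the histone methyltransferase SETDB1, and KRAB proteins are best known for keeping retroelements and imprinted regions silent. Zfp genes without KRAB are a mixed set that includes transcription factors, ribosome and RNA factors, a spindle protein and ubiquitin ligases.

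Both cell types came from mixed glial cultures of pooled brains of C57BL/6 mice, aged 2 to 4 days per the labels, with microglia taken by CD11b selection and astrocytes selected from the remaining fraction. The labels give no genotype beyond the strain, and all cells were treated for 4 h. Microglia (4 libraries per group) received the DMSO vehicle, Nec-1s (N, an inhibitor of RIPK1 kinase), T/5z (TNF plus 5z-7, which inhibits TAK1), T/S/Z (TNF, a Smac mimetic and the caspase inhibitor zVAD), or either stimulus with Nec-1s, written T/5z/N for the first and T/S/Z/N for the second. Astrocytes (3 libraries per group) were not given T/5z. T/5z is used to trigger RIPK1-dependent apoptosis and T/S/Z to trigger necroptosis, and the design asks which part of each response depends on RIPK1 kinase activity.

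Levels are log2(FPKM + 1) as deposited, where FPKM is fragments per kilobase of exon per 1e6 mapped fragments, and are therefore per length. The tables give no depth. From the steps between low values, a Zfp gene of median length at an FPKM of 1 rested on about 65.5 to 90.8 reads or fragments in the microglial libraries of replicate 4 and 98.5 to 103.8 in astrocyte libraries. Depth is unknown for microglial replicates 1 to 3, and in that table each gene has the same mean in every replicate number (largest difference 8.33e-05), an adjustment that lowers the spread between replicates. The labels do not say whether replicates came from separate cultures, while the study's methods describe its n as biological replicates, for cultured cells from different litters. The strongest marker lists matched the labels: the 10 microglial markers summed to an FPKM of 5997 to 7356 in microglia, and the 10 astrocyte markers to 3117 to 3683 in astrocytes. The astrocyte libraries also held markers of other cells. With DMSO, fibroblast markers summed to 612 to 626, neuronal markers to 115 to 128, oligodendrocyte lineage markers to 100.2 to 117 and microglial markers to 83.3 to 88.5. Because these are bulk samples, fewer cells that express a gene and less RNA per cell cannot be told apart.

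By sequence, 181 of the 314 members were of the KRAB type, 130 were not, and 3 had no protein-coding transcript (Zfp125, Zfp469 and Zfp939). A protein was called KRAB-type when its longest open reading frame held at least 8 of 11 residues of the A box of the domain. KRAB-type proteins had a median of 12 fingers and the others a median of 7, a finger being 2 cysteines and 2 histidines at the usual spacing. No such finger was found in 11 members, among them Zfp395, Zfp608, Zfp703 and Zfp704. Of the members, 198 lay within 250 kb of another member, 150 of them of the KRAB type, and 81 members lay on chromosome 7, 39 on chromosome 17 and 27 on chromosome 13. The annotation marks 116 members in the microglial table and 139 in the astrocyte table as confounded, a mark it does not define and which may mean reads shared with another gene. Among the members described most, Zfp395, Zfp703, Zfp704, Zfp608, Zfp710, Zfp800 and Zfp84 carry it in both tables, as do Zfp469, Zfp593, Zfp429, Zfp52, Zfp54, Zfp810, Zfp791 and Zfp219, and Zfp513, Zfp740 and Zfp521 carry it in the astrocyte table.

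In untreated microglia most Zfp transcripts were scarce. The median member had a DMSO level of 1.70 in microglia, against 2.37 over all listed genes, and 2.62 in astrocytes, against 3.45 over all listed genes. KRAB-type members were the lower class in both tables, with median DMSO levels of 1.30 in microglia and 2.38 in astrocytes, against 2.43 and 3.03 for the other members. The tables were scaled separately, and the labels name a different sequencing provider for each although the study's methods name one platform. Levels are therefore set side by side without a test: 268 members were lower in the microglial table and 46 were higher, with a median difference of -0.96.

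The highest level in both tables was that of Zfp207, a spindle and kinetochore protein also known as BuGZ, at 5.45 ± 0.03 in microglia (SD, n = 4) and 7.22 ± 0.12 in astrocytes (SD, n = 3). In microglia it was followed by Zfp710 (5.23 ± 0.09), Zfp706 (4.78 ± 0.09), the ubiquitin ligase Zfp91 (4.72 ± 0.09), the RNA-binding protein Zfp106 (4.63 ± 0.14), the ribosome assembly factor Zfp622 (4.62 ± 0.08), Zfp384 (4.46 ± 0.02) and Zfp263 (4.39 ± 0.09). From Zfp706 to Zfp622, each gene differed from the next by less than the sum of their SDs, as did Zfp384 from Zfp263. In astrocytes the order was Zfp207, Zfp664 (5.68 ± 0.08), Zfp706 (5.44 ± 0.04), Zfp24 (5.39 ± 0.04), which takes part in myelination, Zfp91 (5.25 ± 0.05), Zfp146 (5.23 ± 0.03), Zfp637 (5.20 ± 0.04) and Zfp703 (5.11 ± 0.09), a co-repressor of the NET family. Zfp706 and Zfp24, and each neighbouring pair from Zfp91 to Zfp703, differed by less than the sum of their SDs.

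Zfp710 had the largest difference in favour of microglia, 5.23 ± 0.09 against 2.31 ± 0.14 in astrocytes, followed by Zfp467 (3.35 ± 0.08 against 1.99 ± 0.30), Zfp771 (3.16 ± 0.12 against 1.93 ± 0.11), Zfp524 (3.67 ± 0.09 against 2.52 ± 0.26) and Zfp263 (4.39 ± 0.09 against 3.29 ± 0.05). At the other end Zfp651 was at 0.30 ± 0.03 in microglia and 4.58 ± 0.05 in astrocytes. Zfp365 (0.34 ± 0.07 against 3.82 ± 0.11), Zfp428 (0.59 ± 0.16 against 3.85 ± 0.13), Zfp521 (0.11 ± 0.06 against 3.28 ± 0.10), a developmental regulator, and Zfp462 (0.17 ± 0.09 against 3.02 ± 0.08), a heterochromatin-associated protein, were likewise much lower in microglia.

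Tests covered 230 members in microglia and 310 in astrocytes, those with a level of 1 or more in 4 or more microglial libraries or in 3 or more astrocyte libraries. In microglia 84 members did not pass, and Zfp28, Zfp128, Zfp273 and Zfp791 passed through unstimulated groups only, so the filter favoured a fall of these 4. A gene was called when its Benjamini-Hochberg adjusted p from limma was under 0.05 and its fold change was over 1.5. Changes are log2 differences with their SE.

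Nec-1s alone changed no member past these thresholds. In microglia 0 of 230 were called by limma, beside 0% of all genes. An unadjusted limma p under 0.05 was found for 22 members, beside 892 of all 10524 genes. In astrocytes 0 of 310 were called by limma, beside 0% of all genes called higher and 0.0144% called lower. Here 9 members had an unadjusted limma p under 0.05, beside 790 of all 13842 genes.

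With T/S/Z more Zfp genes fell than rose in microglia. Of 230 tested members 71 fell and 6 rose, beside 17.5% of all tested genes called lower and 12.2% called higher. Members were thus called lower in 30.9% and higher in 2.61% of cases, and 187 of 230 had a change below 0. The median member changed by -0.39 against -0.08 over all 10524 genes. The split depended on scaling: quantile normalization gave 46 lower and 11 higher members, beside 14.1% and 12.7% of all genes. Among the 48 members with a mean level of at least 3, 8 fell and 3 rose, beside 13% and 14.2% of all genes at that level.

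Genes of both classes were among the falls. Of 127 tested KRAB-type members 48 fell and 1 rose (Zfp719), with a median of -0.48 and 91.3% below 0, while of 102 other members 23 fell and 5 rose, with a median of -0.27 and 68.6% below 0. The difference between the classes was not tested, and KRAB-type members also had the lower levels. With 5 in place of 1 added before the log, which shrinks changes of low genes, 3 KRAB-type and 10 other members fell and 0 and 2 rose, beside 7.13% of all genes lower and 8.39% higher. KRAB-type falls were then 2.36% of that class, under the share of all genes. At a mean level of at least 3, 1 of 6 KRAB-type members fell and 0 rose, and 7 of 42 others fell and 3 rose. Quantile normalization left 30 KRAB-type falls, and took the others to 16 falls and 10 rises with a median of -0.11. The summed FPKM of KRAB-type members was 407 to 427 in the 4 DMSO libraries, 262 to 278 with T/S/Z and 369 to 388 with T/S/Z/N. Hence no T/S/Z library overlapped a DMSO library, and the T/S/Z/N libraries lay between them. The summed FPKM of the other members was 811 to 839.8 with DMSO, 726 to 762 with T/S/Z and 760.1 to 813 with T/S/Z/N. All members together made up 0.265% ± 0.0069 (SD, n = 4) of the summed FPKM with DMSO and 0.177% ± 0.0076 with T/S/Z. KRAB-type members in genomic clusters had a median of -0.47 over 108 genes and those outside clusters a median of -0.51 over 19.

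**Figure D1:**
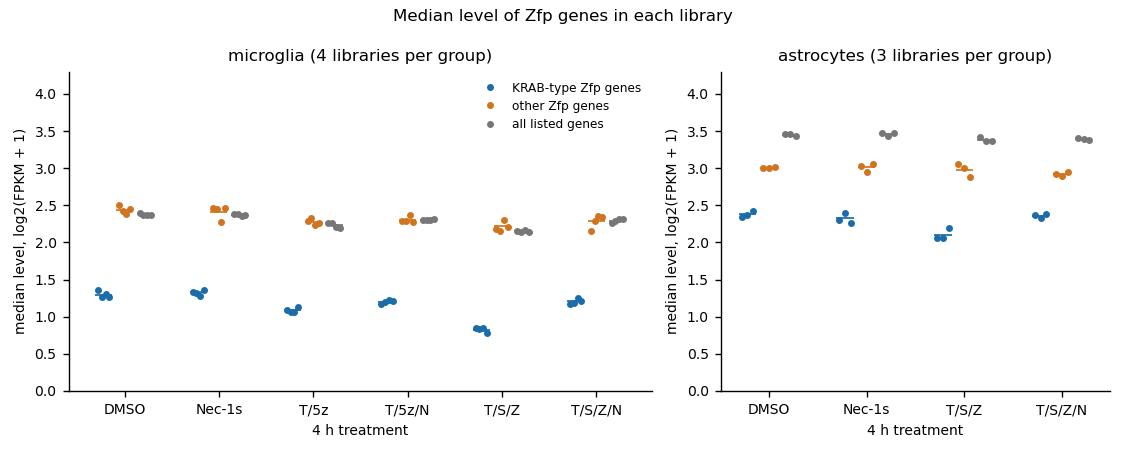
Median level, log2(FPKM + 1), of KRAB-type Zfp genes (blue), other Zfp genes (orange) and all listed genes (grey) in each library (points), with group means (bars), for microglia on the left and astrocytes on the right. In microglia the KRAB-type median lay at 1.26 to 1.36 with DMSO, 0.78 to 0.84 with T/S/Z and 1.17 to 1.25 with T/S/Z/N.

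T/5z changed fewer members. Of 230 members 22 fell and 4 rose, beside 13.3% of all genes lower and 11.1% higher, against 9.57% and 1.74% of members. The median was -0.17 for members and -0.06 for all genes. Of KRAB-type members 11 of 127 fell and 0 rose, and of the others 11 of 102 fell and 4 rose. The KRAB-type counts became 2 lower and 4 higher after quantile normalization, 4 lower and 3 higher after median centring, and 0 in either direction with 5 added before the log (6.79% of all genes lower and 7.31% higher). The balance of the calls moved with scaling, to 11 lower and 9 higher after quantile normalization (12.4% and 11.8% of all genes) and to 15 lower and 8 higher after median centring (11.2% and 12.9%). The summed FPKM of KRAB-type members was 341 to 352 with T/5z, between the DMSO and T/S/Z libraries.

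Set directly against T/5z, T/S/Z had 11 members lower and 2 higher, or 4.78% and 0.87%, beside 4.42% of all genes lower and 5.42% higher. The share of falls was thus near that of all genes, and the share of rises was smaller. The median was -0.22, and 115 of 127 KRAB-type members were below 0. Quantile normalization gave 7 lower and 3 higher, beside 4.04% and 5.26% of all genes. Falls no longer outnumbered rises with 5 added before the log, at 1 lower and 2 higher (2.27% and 3.53% of all genes). The same held at a mean level of at least 3, at 2 each (4.4% and 5.99%).

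**Figure D2:**
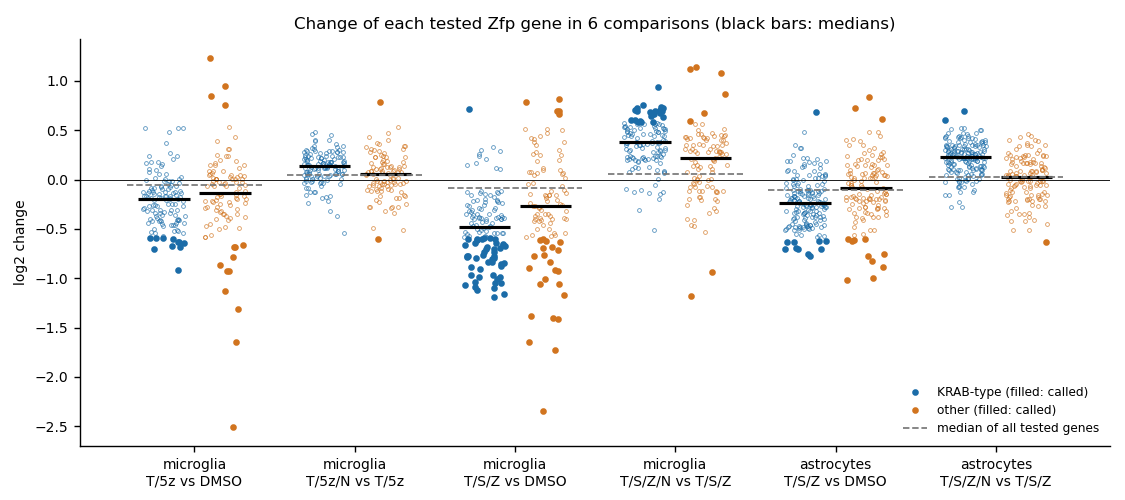
Log2 change of each tested Zfp gene in 6 comparisons, with KRAB-type genes in blue and other genes in orange, filled where called. Genes without a protein-coding transcript are not drawn, black bars are medians of each class and dashed lines are medians of all tested genes. In microglia the KRAB-type median was -0.20 for T/5z, -0.48 for T/S/Z and 0.38 for T/S/Z/N against T/S/Z.

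Nec-1s raised Zfp genes when added to T/S/Z in microglia. Of 230 members 27 rose and 2 fell (Zfp703 and Zfp655), beside 5.35% of all genes higher and 6.72% lower. Among KRAB-type members 21 of 127 rose and 0 fell, with a median of 0.38, and among the others 6 of 102 rose and 2 fell, with a median of 0.22. The median of all genes was 0.06. After quantile normalization 25 members rose and 3 fell, 20 and 1 of them of the KRAB type, beside 3.86% of all genes higher and 6.59% lower. After median centring 18 rose and 3 fell, 13 and 0 of the KRAB type (3.34% and 8.19% of all genes). With 5 added before the log 3 rose and 2 fell, 0 of the KRAB type (1.04% and 3.85%). At a mean level of at least 3, 4 of 48 rose and 2 fell, 1 rise being of the KRAB type (4.29% and 5.72%). This comparison shares its T/S/Z libraries with the comparison to DMSO, so the changes are not independent of those above.

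Added to T/5z, Nec-1s changed only Zfp395 (upward) and Zfp513 (downward) past the thresholds, beside 2.64% of all genes higher and 4.52% lower. The median member changed by 0.10, but by 0.05 after quantile normalization and by -0.02 among members with a mean level of at least 3, and quantile normalization gave 1 higher and 2 lower (2.38% and 4.65% of all genes). Without replicate 4 the change of Zfp513 was -0.55, short of the fold threshold, and 1 member was called. Against DMSO, T/5z/N left 2 members higher and 9 lower, beside 6.16% and 6.69% of all genes. Against DMSO, T/S/Z/N left 2 higher and 7 lower, beside 6.2% and 7.87% of all genes, although quantile normalization gave 6 higher and 5 lower (6.58% and 7.13%) and median centring 4 higher and 6 lower (6.55% and 7.39%).

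Whether Nec-1s acted differently on the stimuli was tested as an interaction, the effect of Nec-1s after T/5z minus that after T/S/Z. It was below 0 and called for 12 members and above 0 and called for 2, beside 2.7% of all genes lower and 3.77% higher. Without replicate 4, 6 were lower and 2 higher. KRAB-type members accounted for 6 of the 12, and for 3 of 8 after median centring, beside 2 higher (2.41% of all genes lower and 4.1% higher). With 5 added before the log 2 members were lower and 2 higher (1.29% and 2.47% of all genes), and at a mean level of at least 3 the counts were 3 and 2 (2.66% and 4.13%).

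Markers of other cell types moved with the stimuli in microglia. Of 7 tested astrocyte markers 5 rose with each stimulus, and the list of 10 summed to an FPKM of 9.64 to 11.5 with DMSO, 15.6 to 27.8 with T/5z, 16.9 to 26.2 with T/S/Z and 6.73 to 7.96 with T/S/Z/N, with 7, 3, 3 and 7 of the 10 under an FPKM of 1. Fibroblast markers summed to 6.66 to 9.1 with DMSO, 12.7 to 21.8 with T/5z and 5.08 to 8.33 under T/S/Z, and endothelial markers to 7.64 to 9.47, 5.27 to 6.18 and 3.41 to 3.97. In the same order, oligodendrocyte lineage markers summed to 30.6 to 32.6, 25.6 to 29.6 and 27.5 to 37.7, and neuronal markers to 1.08 to 1.55, 1.56 to 3.93 and 1.88 to 4.21. With T/5z all 4 tested fibroblast markers rose, 1 of 3 endothelial markers fell, and of 3 oligodendrocyte lineage markers 1 rose and 1 fell. With T/S/Z 0 of 4 fibroblast markers were called by limma, 2 of 3 endothelial markers fell and 2 of 3 oligodendrocyte lineage markers rose. The 1 tested neuronal marker was not called with either. The microglial markers themselves summed to 6092 to 6889 with DMSO and 6009 to 6657 with T/S/Z, with 0 of 10 called for T/S/Z by limma. With T/5z they summed to 6045 to 6896, with 1 of 10 called higher, 2 called lower and a median of -0.15. Adding Nec-1s to T/S/Z lowered 5 of 7 astrocyte markers (median -1.03) and 2 of 3 oligodendrocyte lineage markers, and raised 1 of the latter and 1 of 10 microglial markers. Added to T/5z it lowered 5 of 7 astrocyte markers (median -0.72), 2 of 4 fibroblast markers and 1 of 3 oligodendrocyte lineage markers, and 1 microglial marker rose and 1 fell. The part of these markers in the Zfp changes was not tested.

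**Figure D3:**
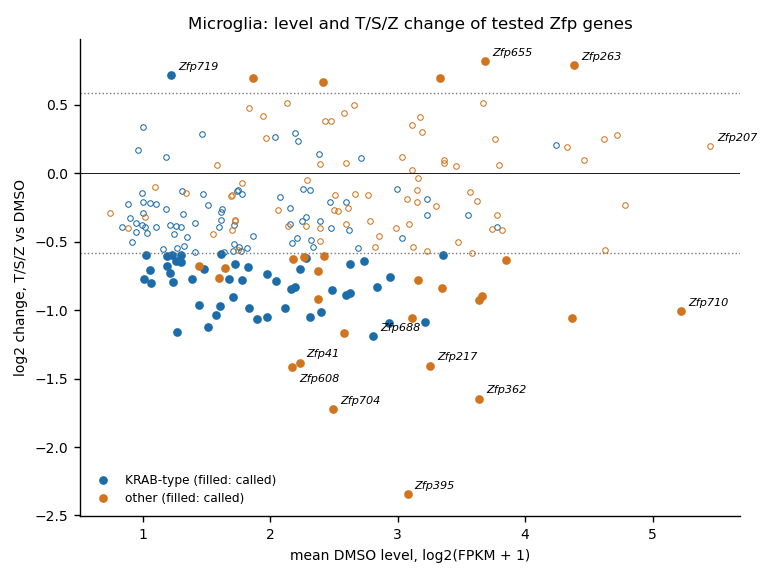
Log2 change with T/S/Z in microglia (vertical) against the mean DMSO level, log2(FPKM + 1) (horizontal), for tested Zfp genes, with KRAB-type genes in blue, others in orange, called genes filled and the 1.5-fold limits dotted. The 71 falling genes reach down to -2.35 for Zfp395, and the 6 rising genes reach up to 0.82 for Zfp655.

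The largest fall in microglia was that of Zfp395 (chr14:65358389-65398930, GRCm38), whose human counterpart is known as a papillomavirus and huntingtin promoter-binding protein. Its levels were 3.02, 2.90, 3.07 and 3.33 with DMSO, 0.62, 0.62, 0.70 and 0.34 with T/5z and 0.81, 0.67, 0.65 and 0.82 under T/S/Z, so every stimulated library lay far below every DMSO library. It fell by 2.51 ± 0.13 on the log2 scale with T/5z (SE, limma adjusted p = 5.61e-06) and by 2.35 ± 0.08 under T/S/Z (adjusted p = 4.53e-07). With Nec-1s its levels were 1.41, 1.46, 1.32 and 1.21 after T/5z and 1.04, 1.08, 1.01 and 0.94 following T/S/Z. These libraries lay above those of the stimulus alone and below those of DMSO. T/5z/N was 0.78 ± 0.09 above T/5z (adjusted p = 0.000259) and differed from DMSO by -1.73 ± 0.11. T/S/Z/N was 0.28 ± 0.09 above T/S/Z, not called, and differed from DMSO by -2.06 ± 0.10.

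Zfp704, a relative of Zfp395, was at 2.46, 2.43, 2.48 and 2.62 with DMSO, 1.02, 0.92, 0.78 and 0.68 with T/5z and 0.92, 0.66, 0.87 and 0.62 under T/S/Z. All stimulated libraries were lower than all DMSO libraries. It changed by -1.64 ± 0.10 with T/5z (adjusted p = 1.36e-05) and -1.73 ± 0.10 under T/S/Z (adjusted p = 3.52e-06), and stood at -1.17 ± 0.08 from DMSO with T/5z/N and -1.30 ± 0.08 under T/S/Z/N.

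Zfp608, a nuclear protein related to Zfp609, was at 2.23, 2.09, 2.12 and 2.25 with DMSO, 1.01, 0.87, 0.73 and 0.86 with T/5z and 0.75, 0.75, 0.76 and 0.78 under T/S/Z, again with no overlap. It changed by -1.31 ± 0.08 with T/5z (adjusted p = 1.28e-05) and -1.41 ± 0.08 under T/S/Z (adjusted p = 3.45e-06), and from DMSO by -1.26 ± 0.09 with T/5z/N and -0.99 ± 0.10 under T/S/Z/N. Zfp821 changed from DMSO by -1.13 ± 0.09 with T/5z, -1.17 ± 0.08 with T/S/Z, -0.82 ± 0.07 with T/5z/N and -0.74 ± 0.07 under T/S/Z/N. Zfp395, Zfp704, Zfp608 and Zfp821 were thus called lower than DMSO in all 4 stimulated groups. With 5 added before the log, Zfp395 kept the call in all 4 and Zfp704 in all but T/5z/N, whereas Zfp608 and Zfp821 were under the fold threshold in each.

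A second set fell with T/S/Z and rose when Nec-1s was added. Zfp217, a DNA-binding subunit of CoREST and CtBP co-repressor complexes (chr2:170108643-170148103), was at 3.27, 3.14, 3.32 and 3.28 with DMSO, 1.84, 1.94, 1.86 and 1.75 with T/S/Z and 2.92, 2.97, 3.11 and 2.88 with T/S/Z/N. The T/S/Z libraries lay below both other groups, with changes of -1.41 ± 0.08 against DMSO (adjusted p = 3.18e-06) and 1.12 ± 0.06 on addition of Nec-1s (adjusted p = 1.08e-05). Its levels were 2.59, 2.50, 2.29 and 2.49 with T/5z and 2.66, 2.64, 2.64 and 2.73 with T/5z/N, a difference of 0.20 ± 0.07 that was not called. The effect of Nec-1s differed between the stimuli by -0.92 ± 0.10 (adjusted p = 2.8e-05).

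Zfp41 (chr15:75616679-75629827) was at 2.19, 2.16, 2.19 and 2.39 with DMSO, 0.88, 0.88, 0.88 and 0.76 with T/S/Z and 1.94, 2.04, 2.01 and 1.95 with T/S/Z/N. The T/S/Z libraries were again the lowest. It fell by 1.38 ± 0.09 on the log2 scale (adjusted p = 7.76e-06) and Nec-1s raised it by 1.14 ± 0.07 (adjusted p = 1.88e-05), the largest such rise among tested members. With T/5z it was at 1.44, 1.67, 1.54 and 1.61, above every T/S/Z library.

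Zfp362, a relative of Zfp384, was at 3.69, 3.71, 3.66 and 3.50 with DMSO, 2.78, 2.74, 2.62 and 2.97 with T/5z, 1.93, 2.11, 2.03 and 1.91 under T/S/Z and 2.97, 3.03, 3.21 and 3.09 with T/S/Z/N. The T/S/Z libraries were the lowest and those of T/5z lay between them and DMSO. It changed by -1.65 ± 0.07 with T/S/Z (adjusted p = 6.73e-07) and by 1.08 ± 0.07 on addition of Nec-1s (adjusted p = 1.81e-05). Zfp740 rose by 0.86 ± 0.06 with Nec-1s after a change of -1.05 ± 0.08 with T/S/Z.

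KRAB-type examples of the same order were Zfp688, Zfp84 and Zfp120. Zfp688 (chr7:127418967-127422068) was at 2.89, 2.73, 2.74 and 2.88 with DMSO, 1.87, 1.88, 1.51 and 1.21 with T/S/Z and 2.58, 2.57, 2.56 and 2.50 with T/S/Z/N. Its T/S/Z libraries were spread widely but did not reach the other groups. The changes were -1.19 ± 0.13 (adjusted p = 0.000103) and 0.93 ± 0.11 (adjusted p = 0.000291). Zfp84 was at 2.97, 3.00, 2.81 and 2.96 with DMSO, 1.78, 1.98, 1.89 and 1.71 with T/S/Z and 2.38, 2.48, 2.78 and 2.64 with T/S/Z/N, with changes of -1.09 ± 0.08 and 0.73 ± 0.09. The corresponding changes of Zfp120 were -1.09 ± 0.07 and 0.71 ± 0.06.

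Other large falls with T/S/Z were those of the KRAB-type Zfp763 (-1.12 ± 0.09) and Zfp791 (-1.16 ± 0.10), the latter a gene that passed the filter through unstimulated libraries. Among falls with T/5z, Zfp652 (-0.93 ± 0.07), Zfp791 (-0.92 ± 0.12), Zfp362 (-0.86 ± 0.09), Zfp217 (-0.79 ± 0.08) and Zfp90 (-0.71 ± 0.10) were among the 10 largest, and the change of Zfp90 was -0.58 after quantile normalization, short of the fold threshold.

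Zfp703 (chr8:26977325-26981461) had an order of its own. It was at 4.20, 4.10, 4.43 and 4.59 with DMSO and 4.48, 4.34, 4.54 and 4.73 with T/S/Z, and those groups overlapped. With T/5z it was at 3.57, 3.68, 3.30 and 3.05, with T/5z/N at 3.36, 3.50, 3.15 and 3.21 and with T/S/Z/N at 3.44, 3.36, 3.40 and 3.15. Every library of these 3 groups lay below every DMSO and T/S/Z library. It changed by -0.93 ± 0.17 with T/5z (adjusted p = 0.00278) and by 0.19 ± 0.06 under T/S/Z, the latter not called. Adding Nec-1s changed it by -1.19 ± 0.10 after T/S/Z (adjusted p = 5.52e-05), against -0.09 ± 0.07 after T/5z, and the interaction was 1.09 ± 0.17 (adjusted p = 0.000336). T/S/Z stood above T/5z by 1.12 ± 0.15. Relative to DMSO it was at -1.02 ± 0.12 with T/5z/N and -0.99 ± 0.12 under T/S/Z/N.

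Zfp655 (chr5:145231715-145247302) rose with T/S/Z, from 3.73, 3.70, 3.74 and 3.58 with DMSO to 4.47, 4.41, 4.47 and 4.69. It was at 3.44, 3.44, 3.45 and 3.53 with T/5z and at 3.61, 3.63, 3.54 and 3.52 with T/S/Z/N, so the T/S/Z libraries were above all of these. It rose by 0.82 ± 0.08 with T/S/Z (adjusted p = 5.82e-05) and fell by 0.94 ± 0.07 on the log2 scale with Nec-1s (adjusted p = 3.36e-05). T/S/Z stood above T/5z by 1.05 ± 0.06, and the interaction was 1.01 ± 0.09 (adjusted p = 3.08e-06).

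Zfp263 (chr16:3744093-3750790) was higher in every stimulated group. It was at 4.39, 4.47, 4.43 and 4.25 with DMSO, 5.64, 5.59, 5.52 and 5.73 with T/5z and 5.03, 5.13, 5.32 and 5.21 under T/S/Z. With Nec-1s it was at 5.20, 5.11, 5.00 and 5.24 after T/5z and 5.40, 5.46, 5.48 and 5.25 following T/S/Z. No stimulated library reached down to the DMSO range. It rose by 1.24 ± 0.07 with T/5z (adjusted p = 1.03e-05), by 0.79 ± 0.07 with T/S/Z (adjusted p = 4e-05), by 0.75 ± 0.07 with T/5z/N and by 1.01 ± 0.05 with T/S/Z/N. Adding Nec-1s moved it by -0.49 ± 0.04 after T/5z and by 0.22 ± 0.06 following T/S/Z, neither called, and these effects differed by -0.71 ± 0.11 (adjusted p = 0.00031).

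The other genes that rose with both stimuli were Zfp275 (0.94 ± 0.07 with T/5z, 0.70 ± 0.08 with T/S/Z and 0.72 ± 0.08 with T/5z/N), Zfp800 (0.85 ± 0.10 with T/5z and 0.67 ± 0.07 under T/S/Z) and Zfp513 (0.75 ± 0.05 with T/5z and 0.69 ± 0.06 under T/S/Z). Zfp719 was the KRAB-type gene that rose with T/S/Z, by 0.71 ± 0.08, from 1.23, 1.25, 1.21 and 1.20 to 1.87, 1.92, 1.94 and 2.01, without overlap. Zfp513 was the gene that Nec-1s lowered after T/5z, by 0.60 on the log2 scale, to 3.49 ± 0.06, beside a DMSO level of 3.34 ± 0.04 (SD, n = 4). With T/S/Z/N, Zfp456 was above DMSO by 0.71 ± 0.08.

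Zfp710, the member with the largest difference in favour of microglia, was at 5.34, 5.21, 5.12 and 5.24 with DMSO, 4.97, 5.07, 4.78 and 5.04 with T/5z, 4.16, 4.32, 4.25 and 4.15 under T/S/Z and 4.56, 4.72, 5.06 and 4.80 with T/S/Z/N. The T/S/Z libraries were the lowest. It changed by -1.01 ± 0.07 with T/S/Z (adjusted p = 9.67e-06), lay -0.74 ± 0.07 from T/5z and had an interaction of -0.90 ± 0.12. Zfp691 (-0.84 ± 0.17) and Zfp111 (-0.69 ± 0.12) also had called interactions, the latter at -0.55 and under the fold threshold without replicate 4. Zfp362 (-0.78 ± 0.09), Zfp952 (-0.75 ± 0.08), Zfp41 (-0.72 ± 0.09) and Zfp455 (-0.71 ± 0.10) were lower with T/S/Z than with T/5z.

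**Figure D4:**
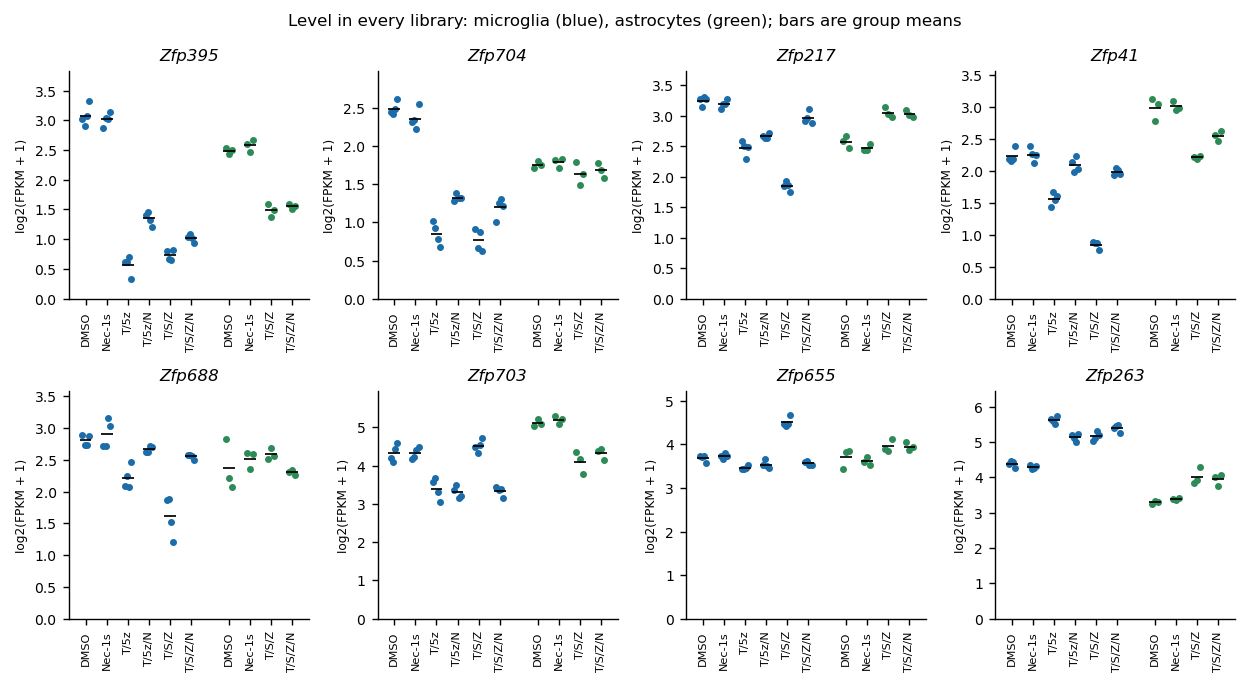
Level, log2(FPKM + 1), of 8 Zfp genes in every library (points) by treatment, microglia in blue and astrocytes in green, with group means (bars). In microglia Zfp395 stayed low with Nec-1s, Zfp217 and Zfp41 were higher with T/S/Z/N than with T/S/Z, Zfp703 was low in every stimulated group except T/S/Z, and Zfp263 was above DMSO in every stimulated group.

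Upstream sequences are shown for genes that moved in contrasting ways, so that their composition can be compared: Zfp263 and Zfp655, which rose, and the KRAB-type Zfp688 and Zfp84, which fell with T/S/Z and rose with Nec-1s. Each is the 120 bases before a RefSeq start of the gene, 5′ to 3′ on its own strand (RefSeq promoter table, GRCm38.p6), at chr16:3743979-3744098 (plus strand), chr5:145231622-145231741 (plus), chr7:127422035-127422154 (minus) and chr7:29768432-29768551 (plus). Capitals mark matches to the GC box GGGCGG or to a kappa-B-like pattern, GGGNNNNNCC, on either strand, and in Zfp655 a match of each kind overlaps the other.
Zfp263: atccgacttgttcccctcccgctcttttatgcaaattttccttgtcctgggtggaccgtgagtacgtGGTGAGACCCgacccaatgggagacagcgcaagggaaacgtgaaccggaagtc
Zfp655: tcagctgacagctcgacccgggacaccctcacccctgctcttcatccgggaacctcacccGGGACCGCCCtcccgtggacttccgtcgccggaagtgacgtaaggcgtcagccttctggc
Zfp688: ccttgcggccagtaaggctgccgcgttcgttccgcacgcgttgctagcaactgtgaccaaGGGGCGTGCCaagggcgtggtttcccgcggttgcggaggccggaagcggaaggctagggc
Zfp84: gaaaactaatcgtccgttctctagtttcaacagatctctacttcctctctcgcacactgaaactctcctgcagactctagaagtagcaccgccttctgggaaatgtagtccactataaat

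The window of Zfp84 held neither pattern. Over the 250 bases before to 50 after the start, the RefSeq table held 318 promoters for 261 of the 314 members and 32851 promoters in all. A GC box was present in 33.3% of KRAB-type promoters, 59.8% of those of other members and 35.7% of all promoters. A kappa-B-like match was present in 48.4%, 72.7% and 50.8% in the same order. The median number of CG pairs was 10, 20 and 7. An AP-1-like match (TGANTCA, either strand) was present in 3.77% of member promoters and 7.81% of all. Promoters of the members that fell with T/S/Z in microglia held a GC box in 44.6% and a kappa-B-like match in 63.5%, and those of the other tested members in 51.2% and 59.4%. A match is a description of the letters and does not show that a factor binds.

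Members with known roles were described by lists. Of the KRAB proteins that guard imprinted regions or silence retroelements (Zfp57, Zfp445, Zfp809, Zfp932, Zfp568 and Zfp708), 4 were tested in microglia and 0 were called by limma with either stimulus. Of all genes 13.3% were called lower and 11.1% higher with T/5z, and 17.5% and 12.2% with T/S/Z. Over so few genes, 0 calls are not read as a trait of the list. With T/S/Z, Zfp445, which with Zfp57 keeps imprints, changed by -0.31, Zfp809, which silences retroviruses, by -0.35, Zfp568 by -0.28 and Zfp932 by -0.15. Zfp57 was at -0.04 ± 0.04 in microglial DMSO libraries and at 2.28 ± 0.07 in astrocytes. In astrocytes 6 of the listed genes were tested and 0 were called by limma with T/S/Z, with a median of -0.12. There 8.99% of all genes were called lower and 6.39% higher.

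A list of 20 transcription factors and co-regulators without KRAB included Zfp503, Zfp608, Zfp609, Zfp703 and Zfp704, in which no C2H2 finger was found. Of the 20, 16 were tested in microglia. T/5z lowered Zfp608, Zfp217, Zfp704 and Zfp703, T/S/Z lowered Zfp219 (-0.78 ± 0.07), Zfp608, Zfp217 and Zfp704, and 0 rose with either. That is 4 of 16 with each, beside 13.3% of all genes called lower and 11.1% called higher by T/5z, and 17.5% and 12.2% in the case of T/S/Z. The list had a median of -0.36 with T/5z, beside -0.17 for all tested members, and of -0.15 with T/S/Z, beside -0.39. Of the 7 RNA, ribosome and spindle proteins 0 were called by limma in microglia with either stimulus, with medians of 0.08 for T/5z and 0.20 in the case of T/S/Z. With T/S/Z, Zfp598, a ubiquitin ligase that acts on collided ribosomes, changed by 0.51 and Zfp593, a nucleolar ribosome assembly factor, by 0.44. Of the 3 ubiquitin and SUMO ligases, Zfp91 and Zfp451 changed by 0.28 and 0.38 with T/S/Z and were not called.

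Partners of KRAB proteins moved in both directions. In microglia their falls were near the share of all genes called lower, and their rises were under the share called higher. Of 29 tested genes of the co-repressor machinery, T/S/Z lowered 5 and raised 1 in microglia, with a median of -0.11, and T/5z lowered 4 and raised 2. Over all genes 17.5% were called lower and 12.2% higher under T/S/Z, and 13.3% and 11.1% under T/5z. Trim28, the central scaffold, changed by -0.33 ± 0.05 with T/S/Z, not called. Setdb1 changed by -0.95 ± 0.06 with T/S/Z and -0.82 ± 0.05 with T/5z, and Atf7ip, which stabilises SETDB1, by -1.03 ± 0.07 and -0.83 ± 0.06. Nec-1s raised Atf7ip by 0.66 ± 0.07 after T/5z and 0.77 ± 0.06 following T/S/Z. With T/S/Z, Dnmt1, the maintenance DNA methyltransferase, changed by -1.16 ± 0.07, Mta3 by -1.02 ± 0.08, Cbx3 by -0.59 ± 0.12 and Hdac1 by 0.78 ± 0.05. In astrocytes T/S/Z raised 1 of 29 tested genes, Daxx (0.81 ± 0.08), and lowered 1, Cbx3 (-0.62 ± 0.09). Over all genes 6.39% were called higher and 8.99% lower there.

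In astrocytes fewer Zfp genes were called with T/S/Z, and so were fewer of all genes. The groups had 3 libraries in place of 4, and the difference from microglia was not tested. Of 310 members 20 fell and 5 rose, beside 8.99% of all tested genes lower and 6.39% higher, and without replicate 1 the counts were 9 and 3. The median was -0.19, against -0.11 for all 13842 genes, a shift of the whole table. Quantile normalization gave 9 lower and 9 higher, beside 6.62% and 7.22% of all genes. Of KRAB-type members 10 of 178 fell and 1 rose, with a median of -0.24 and 80.9% below 0, and of the others 10 of 129 fell and 3 rose, with a median of -0.08. After quantile normalization 3 KRAB-type members fell and 2 rose, with a median of -0.11. The others then stood at 6 falls and 6 rises with a median of 0.00. After median centring 6 KRAB-type members fell and 1 rose, and 6 others fell and 3 rose with a median of -0.03 (7.4% of all genes lower and 7.14% higher). With 5 added before the log 0 KRAB-type members moved either way, and 1 of the others fell and 1 rose (3.02% and 4.1% of all genes). Without replicate 1 there were 2 KRAB-type falls and 0 rises. The summed FPKM of KRAB-type members was 921 to 1017 with DMSO, 765 to 906 with T/S/Z and 949.5 to 995 with T/S/Z/N.

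Fibroblast markers and most microglial markers fell with T/S/Z in the astrocyte libraries, and other lists were mixed. All 6 fibroblast markers fell, from a summed FPKM of 612 to 626 with DMSO to 112 to 124 with T/S/Z, and stood at 489.6 to 492 with T/S/Z/N. Of 9 tested microglial markers 6 fell, and the list of 10 summed to 83.3 to 88.5, 49.5 to 52.8 and 73.7 to 77.7 in the same order. Oligodendrocyte lineage markers summed to 100.2 to 117, 60.3 to 86.9 and 67.9 to 71.9, neuronal markers to 115 to 128, 100.4 to 115 and 105 to 108, and endothelial markers to 17.6 to 19.5, 6.46 to 7.18 and 12.4 to 15.1. Of 7 tested oligodendrocyte lineage markers 2 fell and 0 rose (median 0.02), of 3 neuronal markers 1 fell and 0 rose (median 0.10), and of 3 endothelial markers 2 fell and 1 rose. Of the 10 astrocyte markers 2 fell and 0 rose, and the list summed to 3510 to 3546, 3117 to 3325 and 3128 to 3154. The part of these markers in the Zfp changes of astrocytes was not tested.

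The largest astrocyte fall was that of Zfp703, from 5.03, 5.21 and 5.09 with DMSO to 4.34, 4.17 and 3.78 with T/S/Z, a change of -1.01 ± 0.12 (adjusted p = 0.000794). It was at 4.39, 4.45 and 4.14 with T/S/Z/N, overlapping T/S/Z and below DMSO. Zfp395 went from 2.53, 2.44 and 2.50 to 1.60, 1.37 and 1.49, so that it fell by 1.00 ± 0.10 on the log2 scale (adjusted p = 0.000363), and was at 1.59, 1.51 and 1.56 with T/S/Z/N. Adding Nec-1s to T/S/Z moved Zfp703 by 0.23 ± 0.10 and Zfp395 by 0.07 ± 0.10, neither called. Zfp608 changed by -0.88 ± 0.10 and Zfp41 by -0.77 ± 0.10, the latter from 3.12, 2.79 and 3.05 to 2.21, 2.19 and 2.24 without overlap.

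Some regulators fell in astrocytes that did not pass the filter in microglia. Zfp521 went from 3.17, 3.33 and 3.33 to 2.53, 2.38 and 2.44 (-0.83 ± 0.10, adjusted p = 0.00102), without overlap, and its relative Zfp423 changed by -0.75 ± 0.10. With Zfp703, Zfp608 and Zfp462 these made 5 of the 20 tested members of the list of non-KRAB regulators, and 0 rose, beside 8.99% of all genes lower and 6.39% higher. The KRAB-type Zfp40 (-0.75 ± 0.10), Zfp810 (-0.70 ± 0.11), Zfp54 (-0.77 ± 0.14) and Zfp101 (-0.70 ± 0.12) completed the 10 largest falls. Zfp54 and Zfp101 were not called without replicate 1 (adjusted p = 0.0957 and 0.0654), and after quantile normalization Zfp810 was at -0.55 and Zfp101 at -0.55, short of the fold threshold.

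Among astrocyte rises Zfp469, annotated as a lincRNA, went from 1.70, 1.48 and 1.41 to 2.73, 2.53 and 2.55 (1.07 ± 0.10, adjusted p = 0.000248). Zfp263 went from 3.24, 3.33 and 3.30 to 3.85, 3.93 and 4.28 (0.73 ± 0.10, adjusted p = 0.00181). In both genes the groups did not overlap. Zfp598 rose by 0.62 ± 0.08. Zfp593 (0.83 ± 0.14) and Zfp429 (0.69 ± 0.11) rose, but were not called without replicate 1, where their adjusted p was 0.0935 and 0.0652.

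Nec-1s added to T/S/Z changed 4 astrocyte members, 2 in each direction, beside 1.51% of all genes higher and 1.59% lower. Zfp52 (0.69 ± 0.10) and Zfp952 (0.60 ± 0.09) rose, and Zfp469 (-0.75 ± 0.10) and Zfp593 (-0.64 ± 0.14) fell. Zfp952 and Zfp593 were not called without replicate 1 (adjusted p = 0.0578 and 0.138) or without replicate 2 (adjusted p = 0.0962 and 0.237). The number of called members was 2 without replicate 1 or replicate 2, and 16 without replicate 3. Quantile normalization gave 1 higher and 2 lower (1.32% and 1.68% of all genes), with Zfp952 at 0.55. The median was 0.23 for KRAB-type members, of which 20 of 178 were below 0, and 0.03 for the others and for all genes.

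Against DMSO, T/S/Z/N left 3 astrocyte members higher and 7 lower, beside 4.36% and 4.72% of all genes, and quantile normalization gave 4 higher and 5 lower (4.96% and 3.42%). Zfp429 (1.07 ± 0.10), Zfp456 (0.74 ± 0.11) and Zfp263 (0.66 ± 0.10) were higher. Zfp395 (-0.93 ± 0.09), Zfp78 (-0.85 ± 0.11), Zfp703 (-0.78 ± 0.08), Zfp428 (-0.74 ± 0.15) and Zfp462 (-0.66 ± 0.09) were the largest of the lower ones. Zfp428 was at -0.51, under the fold threshold, without replicate 1 and had an adjusted p of 0.0759 without replicate 2, and Zfp462 one of 0.0605 without replicate 2.

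Set side by side over the 229 members tested in both cell types, T/S/Z raised Zfp263 in both, which was 1 of 6 microglial rises and 1 of 4 astrocyte rises. Zfp41, Zfp53, Zfp386, Zfp395, Zfp608 and Zfp763 fell in both, 8.57% of the 70 microglial falls and 85.7% of the 7 astrocyte falls. Over the 9912 genes tested in both tables, shared rises were 28.9% of the microglial and 50% of the astrocyte rises, and shared falls 14.2% of the microglial and 44.6% of the astrocyte falls. With so few astrocyte calls among the members, nothing particular to them is read from these shares. No member was called in opposite directions. Across members the changes in the cell types had a Pearson r of 0.36 and a Spearman rho of 0.28, a description over genes, which are not independent replicates. Zfp217, which fell in microglia, was at 2.59, 2.66 and 2.47 with DMSO and 3.15, 3.02 and 2.99 with T/S/Z in astrocytes, 0.48 ± 0.10 higher without overlap but not called. Zfp704 was at 1.71, 1.81 and 1.75 with DMSO and 1.79, 1.49 and 1.63 with T/S/Z in astrocytes, and was not called.

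**Figure D5:**
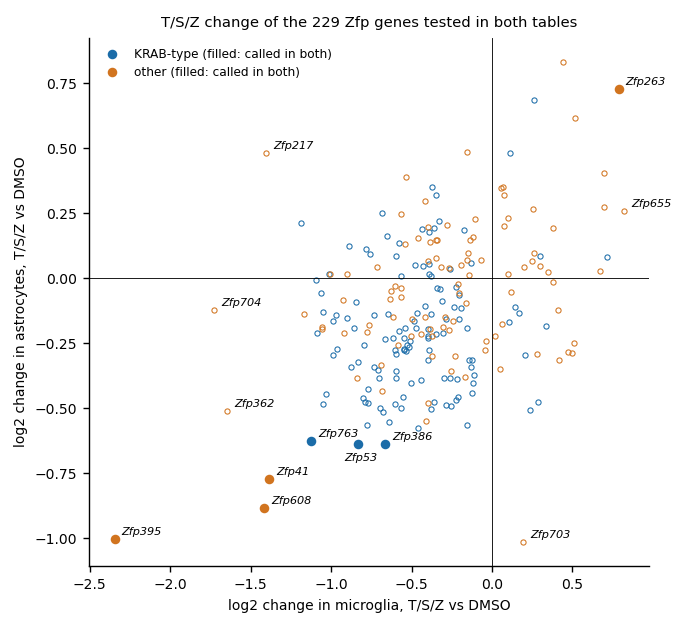
Log2 change with T/S/Z against DMSO in astrocytes (vertical) and in microglia (horizontal) for the Zfp genes tested in both, KRAB-type in blue, others in orange, filled where called in both. The 6 genes that fell in both lie at lower left and Zfp263 at upper right, while Zfp703 was at -1.01 in astrocytes and 0.19 in microglia.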

How the data were processed

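mRNA of 24 microglial and 12 astrocyte libraries was sequenced. Per the study's methods, OmicSoft Array Studio was used for alignment and quantification, and the values the authors deposited are log2 of FPKM plus 1, scaled to the 75th percentile of each library. The build is not given in the sources used here. Coordinates equalled GENCODE M21 (GRCm38) for 100% of members in the astrocyte annotation and 68.8% in the microglial one. The labels name different providers for the cell types, whereas the study's methods name a single platform, a conflict not settled here, and only the astrocyte libraries are described as strand-specific, so cell type and any difference in sequencing cannot be told apart and no test crossed the tables. Microglial gene means were equal between replicate numbers, an adjustment not described in the methods, which left up to 1438 negative values in a library (0 in tested members).

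Groups were compared by limma 3.58.1 in R 4.3.3 (lmFit, eBayes with trend) on the libraries of the compared groups, with the replicate number as block, since the study's own test was paired. Tests were two-sided, adjusted by Benjamini-Hochberg over all 10524 microglial or 13842 astrocyte genes tested. Whole reads were not recovered, so no count test was run. In the astrocyte libraries and microglial replicate 4, 70.2% to 77.8% of low values lay within 0.15 of a whole step. In the other microglial libraries the share was 29.8% to 32.6%. Changes on this scale understate those of low genes. The fit was tested on simulated data. Protein classes came from the longest open reading frames of GENCODE M21 transcripts.

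Named genes were the 10 largest called rises and falls for each stimulus against DMSO and the 5 largest elsewhere, moved alike in every pair, the 8 highest levels per table, the 5 largest and smallest differences between tables, and tested members of role lists. Outside that rule, Zfp84, Zfp120, Zfp53, Zfp386 and genes named for the filter or annotation were chosen after their values were seen. Members and lists were chosen with earlier results of these data known. Alternatives were no block, no filter, a mean level of at least 3, 5 added before the log, quantile normalization, median centring, no fold minimum and leaving out each replicate.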

Additional observations from a re-analysis of the deposited data

Results flagged for a closer look

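In 18 of 240 groups of 4 microglial libraries of the named genes (7.5%), 1 library stood far from the other libraries of its group relative to the range, where chance gives about 1 in 20. Counts without each replicate are given under the dependence on processing. Such libraries were Zfp275 in replicate 1 of T/S/Z (2.43, others 2.59 to 2.61), Zfp800 in replicate 1 of T/5z/N (2.91, others 2.68 to 2.71) and Zfp513 in replicate 3 of DMSO (3.28, others 3.35 to 3.36). The same held for Zfp652 in replicate 3 of T/5z (2.02, others 2.24 to 2.25), Zfp90 in replicate 3 of DMSO (2.41, others 2.66 to 2.67) and Zfp655 in replicate 4 of T/5z (3.53, others 3.44 to 3.45). Further libraries were Zfp41 in replicate 4 of DMSO (2.39, others 2.16 to 2.19), Zfp41 in replicate 4 of T/S/Z (0.76, others 0.88 to 0.88) and Zfp688 in replicate 4 of T/S/Z/N (2.50, others 2.56 to 2.58). Others were Zfp763 in replicate 1 of T/S/Z (0.45, others 0.36 to 0.37), Zfp952 in replicate 1 of T/5z (1.74, others 2.01 to 2.05) and Zfp740 in replicate 2 of T/5z (3.71, others 3.80 to 3.81). Also apart stood Zfp111 in replicate 1 of T/5z/N (2.16, others 2.05 to 2.06), Zfp429 in replicate 2 of DMSO (2.18, others 1.97 to 2.00) and Zfp810 in replicate 2 of T/S/Z (0.39, others 0.20 to 0.20). The last were Zfp101 in replicate 3 of Nec-1s (0.73, others 0.97 to 1.00), Zfp101 in replicate 2 of T/5z/N (0.55, others 0.81 to 0.84) and Zfp52 in replicate 4 of T/S/Z/N (2.25, others 2.47 to 2.50).

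The effect of Nec-1s after T/5z minus that after T/S/Z came from limma's interaction term. Of 230 members 71 had an adjusted p under 0.05, and 14 of them also passed the 1.5-fold minimum. The 71 were 30.9% of members, beside 25.9% of all genes at that adjusted p. Of all genes 2.7% passed both limits below 0 and 3.77% above 0. Without replicate 4, 8 members passed both. Among the 14 it was above 0 for Zfp655 1.01 (adjusted p = 3.08e-06) and Zfp703 1.09 (adjusted p = 0.000336). It was below 0 for Zfp369 -0.59 (adjusted p = 0.0157), Zfp455 -0.59 (adjusted p = 0.0116), Zfp41 -0.60 (adjusted p = 0.000816), Zfp263 -0.71 (adjusted p = 0.00031), Zfp217 -0.92 (adjusted p = 2.8e-05) and Zfp691 -0.84 (adjusted p = 0.00318), and also for Zfp362 -0.65 (adjusted p = 0.000596), Zfp157 -0.66 (adjusted p = 0.0108), Zfp111 -0.69 (adjusted p = 0.000857), Zfp84 -0.63 (adjusted p = 0.00287), Zfp658 -0.61 (adjusted p = 0.0107) and Zfp710 -0.90 (adjusted p = 0.000139).

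In some genes the differences between same-numbered libraries all had one sign in microglia and all the other sign in astrocytes. The numbers were not shown to pair the astrocyte libraries, and the differences between cell types were not tested. Without regard to the numbers, the groups were free of overlap in both cell types for Zfp217 and Zfp688, and overlapped in at least 1 of them for Zfp703 and Zfp719. For T/S/Z against DMSO, the log2 change of Zfp703 was 0.19 in microglia and -1.01 in astrocytes. For T/S/Z/N against T/S/Z, the log2 change of Zfp703 was -1.19 in microglia and 0.23 in astrocytes. For T/S/Z against DMSO, the log2 change of Zfp217 was -1.41 in microglia and 0.48 in astrocytes. For T/S/Z/N against T/S/Z, the log2 change of Zfp719 was -0.14 in microglia and 0.21 in astrocytes. For T/S/Z/N against T/S/Z, the log2 change of Zfp688 was 0.93 in microglia and -0.28 in astrocytes.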

How the results depend on the processing

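Numbers of called members were 26 for T/5z, 77 for T/S/Z, 13 for T/S/Z against T/5z, 2 for T/5z/N against T/5z, 29 for T/S/Z/N against T/S/Z, 11 for T/5z/N against DMSO, 9 for T/S/Z/N against DMSO, 14 for the interaction, 25 for astrocyte T/S/Z, 4 for astrocyte T/S/Z/N against T/S/Z and 10 for astrocyte T/S/Z/N against DMSO. Requiring a mean level of at least 3 gave 5 for T/5z, 11 for T/S/Z, 4 for T/S/Z against T/5z, 1 for T/5z/N against T/5z, 6 for T/S/Z/N against T/S/Z, 3 for T/5z/N against DMSO, 2 for T/S/Z/N against DMSO, 5 for the interaction, 7 for astrocyte T/S/Z, 1 for astrocyte T/S/Z/N against T/S/Z and 3 for astrocyte T/S/Z/N against DMSO. Adding 5 in place of 1 before the log, which shrinks changes of low genes, gave 5 for T/5z, 15 for T/S/Z, 3 for T/S/Z against T/5z, 0 for T/5z/N against T/5z, 5 for T/S/Z/N against T/S/Z, 3 for T/5z/N against DMSO, 4 for T/S/Z/N against DMSO, 4 for the interaction, 2 for astrocyte T/S/Z, 0 for astrocyte T/S/Z/N against T/S/Z and 2 for astrocyte T/S/Z/N against DMSO. Without the fold minimum they were 121 for T/5z, 187 for T/S/Z, 114 for T/S/Z against T/5z, 75 for T/5z/N against T/5z, 165 for T/S/Z/N against T/S/Z, 65 for T/5z/N against DMSO, 68 for T/S/Z/N against DMSO, 71 for the interaction, 111 for astrocyte T/S/Z, 19 for astrocyte T/S/Z/N against T/S/Z and 38 for astrocyte T/S/Z/N against DMSO. In that order these were 52.6%, 81.3%, 49.6%, 32.6%, 71.7%, 28.3%, 29.6%, 30.9%, 35.8%, 6.13% and 12.3% of tested members. Over all tested genes the shares were 64.2%, 71.3%, 40%, 48.35%, 57.8%, 40.5%, 46%, 25.9%, 40.4%, 7.82% and 27%. Leaving out 1 replicate at a time gave 24 to 29 for T/5z, 75 to 83 for T/S/Z, 11 to 18 for T/S/Z against T/5z, 1 to 3 for T/5z/N against T/5z, 25 to 36 for T/S/Z/N against T/S/Z, 9 to 12 for T/5z/N against DMSO, 9 to 13 for T/S/Z/N against DMSO, 8 to 17 for the interaction, 12 to 33 for astrocyte T/S/Z, 2 to 16 for astrocyte T/S/Z/N against T/S/Z and 7 to 12 for astrocyte T/S/Z/N against DMSO. Without replicate 4, T/5z/N against T/5z had 1 call and the interaction 8. Without replicate 1, astrocyte T/S/Z had 12, and astrocyte T/S/Z/N against T/S/Z had 2 without replicate 1, 2 without replicate 2 and 16 without replicate 3. The cause of these moves was not tested.

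Dropping the filter on low values, quantile normalization and median centring kept the total number of called members of each comparison within 1.5 times, but not each direction or class. Beside the moves given with the results, median centring took the astrocyte T/S/Z falls from 20 to 12, the KRAB-type falls among them from 10 to 6, the KRAB-type rises of T/S/Z/N against T/S/Z from 21 to 13 and the KRAB-type falls of T/5z from 11 to 4. Quantile normalization took the KRAB-type falls of T/S/Z from 48 to 30, those of T/5z from 11 to 2 and those of astrocyte T/S/Z from 10 to 3. Without the replicate block the astrocyte T/S/Z count was 24 and every other count was the same. Same-numbered astrocyte libraries had correlations of their deviations from -0.14 to 0.41, with 5 of 18 pairs over 0.1, so the numbers were not shown to pair the samples. Of 946 alternative values for 94 named changes, 871 kept direction and side of the threshold, 75 kept direction but lost the call, 58 of them with 5 added, and 0 reversed. Of 126 alternative medians, 36 moved and 6 changed sign.

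Depth limits genes under an FPKM of 1, and the depth of microglial replicates 1 to 3 is unknown. The equal replicate means of the microglial table narrow the spread behind its p-values. Classes of protein and markers of other cells were described and not tested.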
